A study of Homo sapiens with 2 samples.

Results

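The TGF-beta and BMP genes described here are TGFB1, TGFB2, TGFBR1, TGFBR2, INHBA, BMP4, ID1, ID3, SMAD6 and SMAD7, 10 genes of the 34757 symbols in the deposited normalized table. Members were found by gene symbol, and the array carries 11 probes for them, 2 for TGFBR2 and 1 for each other gene. A375 is an established human melanoma cell line. RNA was taken 48 h after transfection from 1 culture that received siRNA against THOC2 (si-THOC2) and from 1 culture that received the control siRNA (NC), and each RNA was measured on 1 Agilent SurePrint G3 array. Both cultures were transfected with the same lipid reagent. The methods list several siRNAs against THOC2, and the number in the title of the si-THOC2 sample is not among their names. There were no replicates, so the conditions cannot be tested against each other, and each difference given is one between 2 arrays. Fewer cells with a transcript and less transcript per cell cannot be told apart in bulk RNA.

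TGF-beta, activin and BMP are secreted ligands of one family. A ligand brings together a pair of serine and threonine kinase receptors, which phosphorylate SMAD2 and SMAD3 in the TGF-beta and activin branch and SMAD1, SMAD5 and SMAD9 in the BMP branch. These proteins enter the nucleus with SMAD4 and switch target genes on. SMAD6 and SMAD7 are induced by the same signals and act back on the receptors as inhibitors. The ID genes are classical BMP targets, and their proteins hold basic helix-loop-helix transcription factors away from DNA. In melanoma the pathway is known for its part in invasion and in the switch between proliferative and invasive cell states.

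The titles and descriptions of both samples name one condition and their source field names the other. The titles were followed, and both arrays lay on 1 slide. THOC2 was lower on the array titled as si-THOC2 by both of its probes, at 37.3% and 64.6% of NC after scaling. The log2 signal had its 75th percentile at 6.62 for NC and 6.31 for si-THOC2, and each array was scaled by its own. Of 58199 probes, the scanner software marked 42.3% as well above background for NC and 39.4% for si-THOC2, and the 25345 that passed on 1 array or both are called compared probes here. Of 9 melanocyte and melanoma markers, 6 passed for NC and 7 for si-THOC2, with SOX10 and MITF among them, while PMEL and TYR passed on neither array. The epithelial markers EPCAM and CDH1 passed on neither. On each array 2 of 5 fibroblast, 2 of 4 keratinocyte and 2 of 2 immune markers passed (CD68, also listed, has no probe), as did 2 of 2 endothelial markers for NC and 1 for si-THOC2. The immune and endothelial signals were dim. For NC, PTPRC read 27.4, CD3E 25.3, PECAM1 16.2 and CDH5 17.0 at most, where the dimmest signal that passed was 14.7. MLANA, which passed for si-THOC2 alone, read 18.7 there, where the dimmest that passed was 15.9.

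The probes behind the ID results are shown first, since the 3 genes belong to one family and their probes might be alike in sequence. The letters are the first 30 of the 60 bases of each probe, from the deposited annotation on hg19, and whether a probe lies in coding sequence or in an untranslated region was not analysed here.
ID1 probe, chr20:30194158-30194217, plus strand: gcagacattttaaaaaatggtcacgtttgg
ID2 first probe, chr2:8822642-8823030, plus strand: aggcttctgaattcccttctgagttaatgt
ID2 second probe, chr2:8824282-8824341, plus strand: gtgaaaccttgttaactctttaattagagt
ID3 probe, chr1:23885666-23885725, minus strand: agccaggtggaaatcctacagcgcgtcatc
Over their full 60 bases, the 6 pairs of these 4 probes shared runs of 4 to 7 bases at most. Only the probes were compared with each other. Whether a probe matches the transcript of another ID gene was not analysed. The first ID2 probe covers 389 bases of the genome, so it crosses a gap between exons.

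Of the 11 member probes, 6 passed the background call for both samples, 1 for NC alone and 4 for neither. The 6 belong to TGFB1, INHBA, TGFBR2, SMAD7, ID1 and ID3. At 2-fold, the threshold in the methods, 0 of the 7 compared member probes were lower and 0 were higher, where 3.33% of all compared probes were lower and 2.93% were higher. At 1.5-fold, ID1 and ID3 were lower and no member was higher, where 7.69% of all compared probes were lower and 6.14% were higher. Of the 6 probes that passed for both samples, 0 passed 2-fold, where 0.365% of all such probes were lower and 0.829% were higher. ID1 and ID3 were again the ones past 1.5-fold, where 2.94% of such probes were lower and 3.84% were higher. Over the 7 compared member genes the log2 fold change (si-THOC2 over NC) had a median of -0.12 and lay below 0 for 5. Over 17514 compared genes the median was 0.023 and 46.6% lay below 0. The member median is the value of SMAD6, one of the 5, which passed for NC alone. Passing only through the array where a probe is high favours a value below 0. The 7 genes are too few to be read against all genes.

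**Figure D1:**
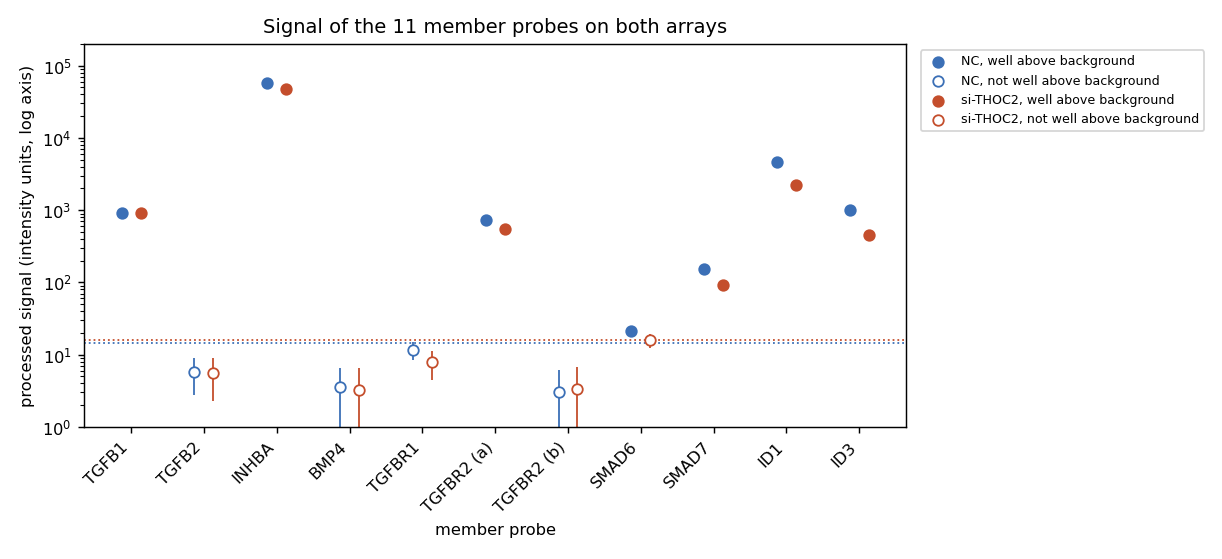
Processed signal (intensity units, log axis) of the 11 member probes on the NC array and the si-THOC2 array. Bars give the scanner software's error of the spot and are cut where they reach the bottom of the axis, filled points are well above background, and dotted lines mark the dimmest signal that passed on each array (14.7 and 15.9). TGFBR2 (a) is the probe at chr3:30735163-30735222 and TGFBR2 (b) the one at chr3:30703057-30703116. ID1, ID3 and SMAD7 show the widest gaps between the arrays among the probes filled on both.

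The processed signal of ID1 was 4700 ± 470 for NC and 2236 ± 224 for si-THOC2, where the error is the scanner software's own for the spot. After scaling, the si-THOC2 array stood at 59.0% of NC, a log2 fold change of -0.76. The technical SD at this signal, taken from probes printed on several spots, was 0.05. Of 1182 compared probes of like signal, 0.423% were further down than ID1, and the SD of their log2 fold changes was 0.21. ID1 was thus among the lowest probes of its signal range, while it missed the 2-fold threshold.

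ID3, whose protein also binds helix-loop-helix factors, read 1012 ± 101 for NC and 453 ± 45.5 for si-THOC2. It stood at 55.5% of NC, a log2 fold change of -0.85 with a technical SD of 0.05. Of 2277 compared probes of like signal, 0.0878% were further down. Its spot lies in row 384, the last row of the array. In the block of 172 compared probes around it, the median log2 fold change was 0.027 and 2.91% were lower by 2-fold. The part of the spot's place in the ID3 value was not tested beyond this, and no second probe of ID3 is on the array. For ID1 the surrounding block had a median of 0.030.

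ID2, a gene outside the 10, was in the list of other pathway genes and was measured by both of its probes on both arrays. The first probe read 147 ± 15.0 for NC and 70.1 ± 7.78 for si-THOC2, and its log2 fold change was -0.76 (technical SD 0.10). The second read 65.6 ± 7.28 and 30.3 ± 4.61, and its log2 fold change was -0.80 (technical SD 0.17). The 3 measured ID genes therefore lay between -0.76 and -0.85 on the log2 scale. With normexp background correction ID2 was at -0.37, ID1 at -0.88 and ID3 at -0.87. This setting replaces the background correction, which also changes the scaling, and ID1 and ID3 moved away from 0 with it. The setting also adds an offset of 50 to each signal, which by itself draws folds toward 0, the more so the dimmer the probe. The part of each step was not tested. ID2 was the dimmest of the 3, so these values cannot show whether it differs from ID1 and ID3. ID4 did not pass the background call on either array.

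**Figure D2:**
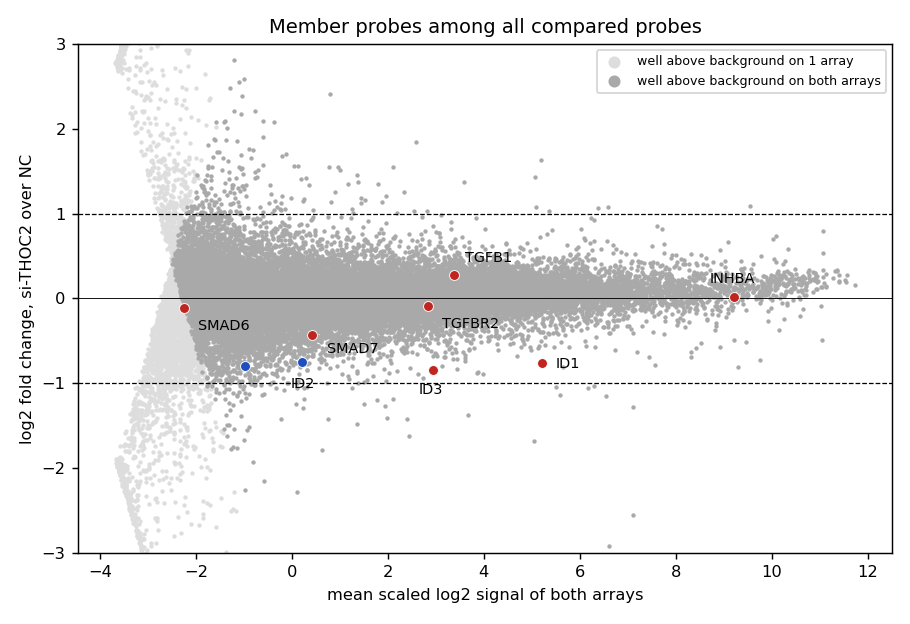
Log2 fold change (si-THOC2 over NC) against the mean scaled log2 signal of both arrays for 25345 compared probes, with members in red and ID2 in blue. Dashed lines mark 2-fold, and 328 probes beyond 3 on the log2 scale lie outside the axis. ID1 and ID3 sit at the lower edge of the cloud at their signals, and TGFB1, TGFBR2 and INHBA sit inside it.

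Because ID1, ID2 and ID3 were lower by similar amounts, the sequence just upstream of their start sites is given from RefSeq on GRCh38.p14, a later build than that of the probes. All 10 members matched the RefSeq table, with 22 start sites. Capitals mark GTCT, the core of the SMAD binding element, or its reverse complement AGAC, and TATAA where it begins 40 to 20 bases before the start. Each run is the 180 bases before the start site, written in the direction of the gene.
ID1 upstream region, chr20:31605109-31605288, plus strand: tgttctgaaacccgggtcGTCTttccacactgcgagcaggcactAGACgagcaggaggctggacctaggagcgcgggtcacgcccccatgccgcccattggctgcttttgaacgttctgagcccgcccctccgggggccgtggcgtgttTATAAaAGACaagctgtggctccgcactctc
ID2 upstream region, chr2:8681876-8682055, plus strand: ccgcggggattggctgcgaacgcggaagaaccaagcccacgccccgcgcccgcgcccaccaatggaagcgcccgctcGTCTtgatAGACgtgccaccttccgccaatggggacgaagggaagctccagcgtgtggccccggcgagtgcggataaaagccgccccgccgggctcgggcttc
ID3 upstream region, chr1:23559502-23559681, minus strand: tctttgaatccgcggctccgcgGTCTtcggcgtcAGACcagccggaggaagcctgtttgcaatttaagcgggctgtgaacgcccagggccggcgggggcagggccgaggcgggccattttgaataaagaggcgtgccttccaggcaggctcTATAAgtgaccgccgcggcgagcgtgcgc
ID1 holds GTCT at -162 and AGAC at -136 and -25, ID3 holds GTCT at -158 and AGAC at -146, and ID2 holds GTCT at -103 and AGAC at -95, counted as bases from the start site to the first letter. GTCT or AGAC is present in 77.5% of all 35116 RefSeq upstream regions of 250 bases, so most genes share it. TATAA begins at -31 in ID1 and at -29 in ID3 and is absent from that window in ID2, and 3.89% of all regions hold it there. A match of letters is a description of the sequence and not a binding site. No other SMAD sequence was marked here, and the part of these letters in the lower ID signals was not tested.

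SMAD7, the inhibitor of both branches, read 152 ± 15.5 for NC and 91.1 ± 9.76 for si-THOC2. It stood at 74.3% of NC, a log2 fold change of -0.43 (technical SD 0.10). Of 3047 probes of like signal 7.25% were further down, so the SMAD7 value lay nearer to the middle of its signal range than those of ID1 and ID3. SMAD6, which acts mainly on the BMP branch, read 21.4 ± 3.64 for NC and 15.9 ± 3.58 for si-THOC2, where it was not well above background. Its bound was taken against its own signal, so with this scaling the bound equals the measured fold, 1.08-fold lower with si-THOC2. This difference is smaller than the technical SD of 0.17 on the log2 scale. SMAD6 lay above 0 with lowess centring, at 0.042, and with normexp, at 0.11, so its direction is not settled. The start of SMAD6 is shown because it carries GTCTAGAC, the joined form of both letters above, which is found in 64 of the 35116 regions (0.182%).
SMAD6 upstream region, chr15:66702176-66702235, plus strand: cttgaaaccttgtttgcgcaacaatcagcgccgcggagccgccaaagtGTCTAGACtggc
The capitals, 12 bases before the start site, mark GTCTAGAC. The 3 start sites of SMAD7 in the table hold 1 to 5 copies of GTCT or AGAC and no GTCTAGAC in the 250 bases before them.

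INHBA encodes the subunit of activin A and is the one member printed on several spots. Its 10 spots read from 56856 to 60266 for NC, with a median of 58526 and a coefficient of variation of 1.81%. On the si-THOC2 array 2 of the 10 spots were marked as outliers and left out, and the other 8 read from 45836 to 49977, with a median of 47206 and a coefficient of variation of 2.88%. Before scaling, every spot used was thus lower with si-THOC2. The scaling between the arrays takes up this gap, and the log2 fold change over the 8 spot pairs was 0.015 ± 0.041 (SD, n = 8 spots on 1 array each), with 5 pairs below 0 and 3 above. Quantile normalization gave INHBA a log2 fold change of -0.069 and lowess centring -0.11, so its direction is not settled by these arrays. No spot was saturated on either array.

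**Figure D3:**
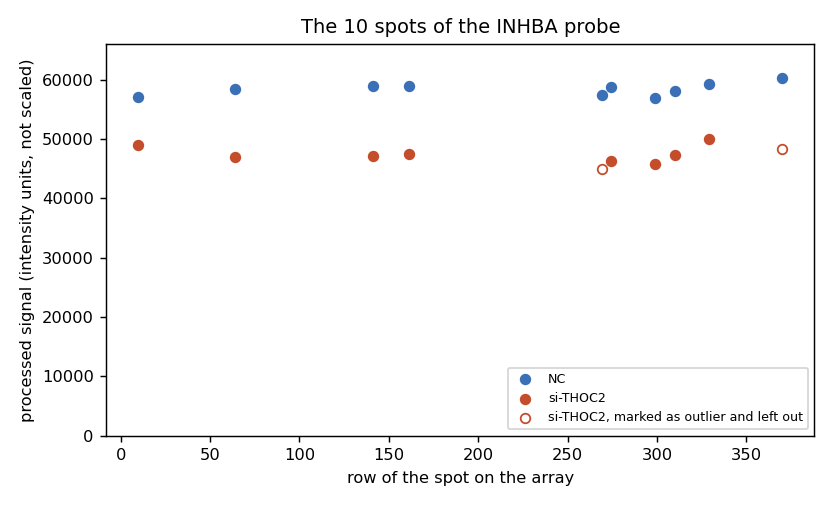
Processed signal (intensity units, before scaling between arrays) of the 10 INHBA spots against their row on the array. The NC spots lie between 56856 and 60266 and the si-THOC2 spots that were used between 45836 and 49977, with no overlap, a gap that scaling by the 75th percentile of each array brings to a log2 fold change of 0.015.

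TGFB1, the founding ligand of the TGF-beta branch, read 925 ± 92.6 for NC and 903 ± 90.4 for si-THOC2. The raw signals overlapped within the software's error, and TGFB1 was higher with si-THOC2 only after scaling, with a log2 fold change of 0.28 (technical SD 0.05). Of 2084 compared probes of like signal, 12.5% were higher by more. The 60 bases of its probe span 9661 bases of the genome (chr19:41838142-41847802, hg19), so the probe crosses exon borders. TGFB2 and BMP4, the other ligands, passed the background call on neither array. TGFB2 read 5.83 with NC and 5.62 with si-THOC2, and BMP4 read 3.55 and 3.28, where the dimmest signals that passed were 14.7 and 15.9. No fold is given for them.

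TGFBR2 encodes the receptor that binds TGF-beta first, and only 1 of its 2 probes gave a measurable signal.
TGFBR2 (a) probe, chr3:30735163-30735222, plus strand: catgctgataccatcccaatagctgttgcc
TGFBR2 (b) probe, chr3:30703057-30703116, plus strand: atcgattgcaaaggagcacttgtcaaaaca
These are again the first 30 bases, and the annotation assigns probe (b) to a predicted transcript. Probe (a) read 722 ± 72.3 for NC and 546 ± 54.7 for si-THOC2. Its log2 fold change was -0.094 (technical SD 0.05), and 25.3% of 2324 probes of like signal were further down. Probe (b) read 3.04 and 3.34 and passed on neither array. TGFBR1, the kinase that TGFBR2 activates, read 11.8 ± 3.20 for NC and 7.85 ± 3.36 for si-THOC2 by its 1 probe and passed on neither array, so a fold cannot be given.

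**Figure D4:**
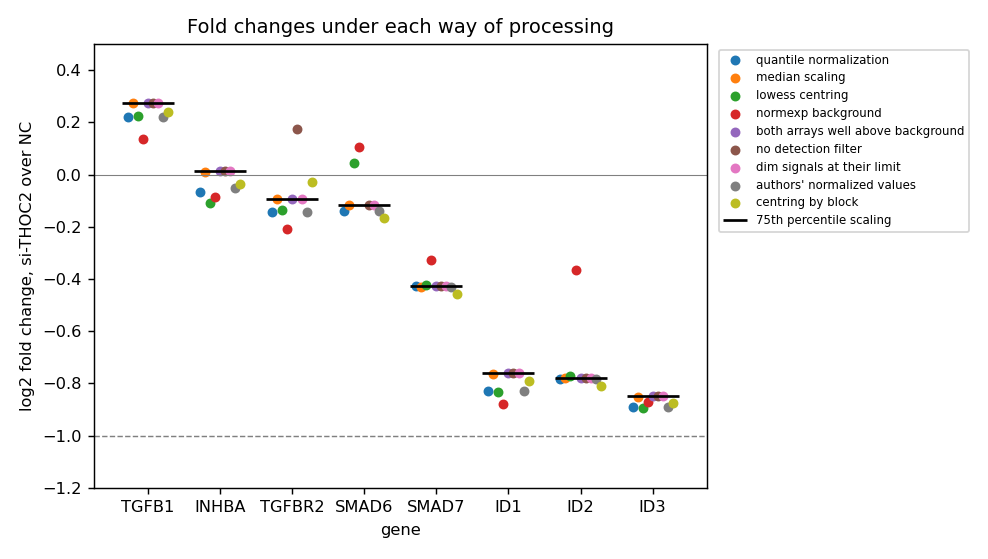
Log2 fold change (si-THOC2 over NC) of each compared member gene and ID2 with 75th percentile scaling (black lines) and under 9 other ways of processing (points), or 8 for SMAD6, which has no value when detection on both arrays is asked for. ID1 and ID3 stay between -0.76 and -0.89, SMAD7 between -0.33 and -0.46 and ID2 between -0.37 and -0.81, while INHBA, SMAD6 and TGFBR2 have points on both sides of 0.

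A list of 79 other genes of TGF-beta, activin and BMP signaling was on the array in full, and 52 were compared. As gene means, 0 of the 52 were lower and 3 were higher by 2-fold, where 3.34% of all compared genes were lower and 2.96% were higher. The median log2 fold change was 0.074, and 21 of the 52 lay below 0, where 46.6% of all compared genes did. Genes that passed on 1 array only are among the 52, and that filter favoured their direction in advance. At 1.5-fold 5 were lower and 5 higher, where 7.19% and 6.03% of all compared genes were. Apart from ID2, the lower genes passed for NC alone, and none had a bound that reached 1.5-fold. Among the higher, SMAD2 passed for si-THOC2 alone, with a bound of 1.49-fold. With probes well above background on both arrays, 45 genes were left, of which 0 were lower and 3 were higher by 2-fold, where 0.352% and 0.837% of all such genes were, and 15 of the 45 lay below 0, where 43.2% of all such genes did. At 1.5-fold ID2 was lower and 4 genes were higher, where 2.61% and 3.53% of all such genes were. The counts are too small to be read against these shares.

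The 3 genes past 2-fold were NOG, DCN and FN1. NOG encodes noggin, a secreted antagonist that binds BMP ligands. It read 180 ± 18.2 for NC and 317 ± 31.9 for si-THOC2. Its log2 fold change was 1.13 (technical SD 0.10), and 0.363% of the compared probes of like signal were higher by more. DCN encodes decorin, a matrix proteoglycan that binds TGF-beta. Of its 2 probes, 1 read 62.4 ± 7.26 and 149 ± 15.4, with a log2 fold change of 1.56 (technical SD 0.10). The other DCN probe passed on neither array. DCN is also a fibroblast marker, and of the other fibroblast markers COL1A1, COL1A2 and LUM passed on neither array and PDGFRB was at -0.098 on the log2 scale. The part of fibroblast RNA in the DCN value was not tested. In the block around the DCN spot 9.47% of compared probes were lower by 2-fold and 2.63% were higher. Of all compared probes 3.33% were lower and 2.93% were higher. FN1, the fibronectin gene and a TGF-beta target, read 26.0 ± 4.10 and 42.4 ± 5.49, and its log2 fold change was 1.02 (technical SD 0.17), with 2.86% of the compared probes of like signal higher by more. With normexp background correction none of the 3 passed 2-fold, with NOG at 0.83, DCN at 0.87 and FN1 at 0.40. The offset in that setting by itself draws folds toward 0, the more so the dimmer the probe. The setting also changes the background correction and the scaling, and the part of each step was not tested. FN1 also missed 2-fold with centring by block, at 0.98. DCN missed it without a detection filter, at 0.99, where its dim probe enters the mean.

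Among genes measured on both arrays, 4 of 9 ligands lay below 0, from BMP7 at -0.49 to GDF15, a stress-induced member of the family, at 0.30. Before scaling GDF15 read 4425 for NC and 4410 for si-THOC2, so its direction rests on the scaling between the arrays. Of 5 receptors none lay below 0, from the BMP and activin receptor gene ACVR1 at 0.090, the mean of probes at -0.15 and 0.33, to the activin receptor gene ACVR2B at 0.28 (technical SD 0.17). Before scaling the mean signal of each of the 5 was lower with si-THOC2. ACVR1 went from 132 to 113 and ACVR2B from 48.9 to 47.8, so the direction of the receptors also rests on the scaling. Of 4 SMAD genes 1 lay below 0. The common partner SMAD4 was at -0.26 as the mean of probes at -0.12 and -0.40, and the BMP branch gene SMAD5 was at 0.41, or 0.24 with normexp and 0.15 without a detection filter. Of 15 inhibitors and regulators 6 lay below 0, the lowest being FSTL1 at -0.36 (technical SD 0.17). The fourth gene past 1.5-fold in the upward direction, LTBP1, which encodes a protein that stores latent TGF-beta, was at 0.67 and read 15.0 for NC, close to the dimmest signal that passed. Of 12 targets 4 lay below 0, with ID2 the lowest at -0.78 and FN1 the highest. With normexp BMP7 was at -0.30, GDF15 at 0.16, FSTL1 at -0.18 and LTBP1 at 0.24. BMP7, SMAD5 and LTBP1 were each measured by 1 probe, and the rest of their probes passed on neither array.

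**Figure D5:**
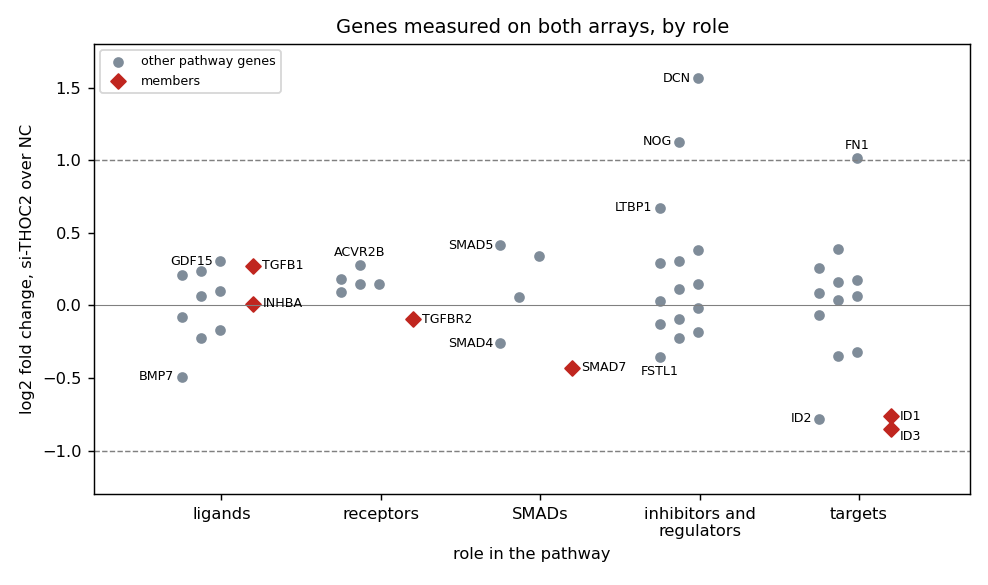
Log2 fold change (si-THOC2 over NC) of the genes measured on both arrays, by role, with the members as red diamonds and the 45 other pathway genes in grey. Dashed lines mark 2-fold. ID1, ID2 and ID3 are the lowest points of the targets, and NOG and DCN are the highest of the inhibitors and regulators.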

How the data were processed

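The authors deposited the scanner intensity of each spot from Agilent Feature Extraction 10.7.1.1, and log2 values normalized between arrays, whose sorted values match to within 0.000788, as quantile normalization gives. Their table of fold changes was not used. The methods name Student's test, which 1 array per group cannot feed. Control spots and spots marked as outliers (147 for NC, 168 for si-THOC2) were left out. The log2 processed signals were averaged per probe and lowered by the array's 75th percentile. Gene values average the compared probes, and calls were made at 2-fold. Like signal means within 0.5 of the mean log2 signal. The technical SD is the median over probes with repeated spots, 0.05 (244 probes, log2 signal over 8), 0.10 (36 probes, 6 to 8) or 0.17 (5 probes, 4 to 6), and covers error within the arrays. A probe dim on 1 array has a bound, taken against the dimmest signal that passed there or its own, if higher. Blocks are the 128 parts of a grid over the array. Members and lists were chosen with earlier results of these data known. Named genes are all members and, from the list of 79, those past 2-fold on both arrays and the highest and lowest of each role, with ID4, LTBP1 and the genes of the last section added after their values were seen. Python 3.11.15 (numpy 2.4.6, pandas 2.3.3, statsmodels 0.14.6, matplotlib 3.10.9) and R 4.3.3 (limma 3.58.1) were used, and the steps were tested on simulated data. Alternatives were quantile normalization, median scaling, lowess centring (span 0.3), normexp (offset 50), detection for both samples, no filter, a floor for dim signals, the authors' values, centring by block and a fold of 1.5.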

Additional observations from a re-analysis of the deposited data

How the results depend on the processing

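No paired analysis was possible because each condition has 1 array, and no replicate could be left out. Of the alternatives, 9 changed values and 1 the fold threshold. ID1, ID3 and SMAD7 were below 0 and TGFB1 above 0 in all 9. For these genes much of this was fixed in advance. Each has 1 probe, detected on both arrays, so the settings for detection and dim signals return the same value. Median scaling shifted all values by only -0.001, and for these genes the authors' values were nearly those of quantile normalization. ID3 moved by less than its technical SD in each. Quantile normalization, lowess centring and the authors' normalized values each put ID1 at -0.83 and TGFB1 at 0.22, and put INHBA at -0.069, -0.11 and -0.053 against 0.012. Normexp background correction gave ID1 -0.88, INHBA -0.085, SMAD7 -0.33, TGFB1 0.14, TGFBR2 -0.21, SMAD6 0.11, the THOC2 mean -0.51 against -1.03, the member median -0.21 and 0 pathway genes called higher against 3. SMAD6 was also above 0 with lowess centring, at 0.04. No detection filter put TGFBR2 at 0.17, because its dim probe enters the mean, the member median at -0.052 and 1 pathway gene lower. Detection on both arrays put the median at -0.26, which follows from leaving out SMAD6, and centring by block put TGFBR2 at -0.028. At 1.5-fold, 2 member probes were lower, and 5 pathway genes were lower and 5 higher, with genes dim on 1 array counted. The offset of 50 in normexp by itself draws folds toward 0, the more so the dimmer the probe. Normexp also changes the background correction and the scaling, and ID1, ID3 and TGFBR2 moved away from 0 with it. The part of each step and the causes of the other changes were not tested. ID2 moved with normexp only, to -0.37. Precision is limited by having 1 array each, and signals near background limit BMP4, TGFB2, TGFBR1 and SMAD6.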

Other observations

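Genes of the pathway's feedback and matrix output were picked here after their values were seen, and no test was made. PMEPA1, a TGF-beta target that dampens SMAD signaling, was lower with si-THOC2 by both of its probes, with signals of 13797 and 8910 on one and 3902 and 2422 on the other, log2 fold changes of -0.32 and -0.38 (technical SD 0.05). BAMBI, a receptor decoy, was at -0.22, from 4502 to 3115. THBS1, which encodes thrombospondin, an activator of latent TGF-beta, was higher by both probes, at 0.43 (technical SD 0.05) and 0.35 (technical SD 0.17). The secreted protein gene TGFBI was at 0.26, from 11622 to 11231 before scaling, so its direction rests on the scaling between the arrays.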
